A study of Rattus norvegicus with 14 samples.

Results

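The end of rat chromosome 20 that carries the major histocompatibility complex (MHC) was described through its Methyl-Seq regions, that is, the stretches of DNA in which methylated fragments were counted. Members were all regions on chromosome 20 with a start below 6000000 in the RN4 build, which gave 1100 of the 310070 regions of the series. The other 8262 regions of chromosome 20 served as the comparison. The rule used position only and no measured value, but the regions themselves had been called by the authors as differing between pairs of these same libraries.

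Methyl-Seq captures fragmented DNA with a methyl-CpG binding protein, so that a region's tags rise with the amount of methylated DNA captured and do not give a methylation level. DNA came from the dorsal hippocampus of 14 individual male Wistar rats, an outbred stock, for which the labels give no genotype. The 5 CTRL rats received methyl scopolamine (1 mg/kg) and saline. The 4 PILO rats received methyl scopolamine, pilocarpine (340 mg/kg) to induce status epilepticus, and diazepam (8 mg/kg), on standard diet. The 5 PILO + KD rats had the same injections and a ketogenic diet, rich in fat and poor in carbohydrate. All were observed for 84 days, CTRL rats were age-matched, and rats that did not enter status epilepticus could receive a further, smaller pilocarpine dose that the labels do not assign to animals. No group received the ketogenic diet without pilocarpine. The comparisons asked how the DNA methylation profile differed in chronic epilepsy and whether the diet moved it.

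The MHC encodes the class I and class II molecules that present peptides to T cells, together with complement components, cytokines of the tumour necrosis factor family and parts of the peptide-loading machinery. It is among the most variable parts of vertebrate genomes, both between individuals and in the number of class I gene copies. In the rat it is called RT1, and in brain its class I and class II molecules are best known from microglia. RefSeq's annotation of the later GRCr8 build places all 44 protein-coding RT1 genes on chromosome 20, in an order that runs from RT1-M2 over Gabbr1, Mog and RT1-CE1 to Tnf, Notch4, C4b, RT1-Da, RT1-Ba, Tap2, Psmb8, RT1-DMa, RT1-A2 and Tapbp, with 60 olfactory receptor genes before the last RT1 gene. That order is background only. An RN4 annotation was not used here, so that no region below is assigned to a gene, exon, intron or promoter and the dorsal hippocampus label could not be checked against marker genes.

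The members were somewhat denser and longer than the regions beyond them. They numbered 183 per Mb against 168 per Mb in the rest of chromosome 20, had a median length of 662 bp (163 to 9763 bp) against 597 bp, and covered 13.8% of their stretch against 11.5%. Regions with summed tags of the 14 animals below the 50th centile (129 tags) were removed, which left 680 members for testing. The 420 members removed had 7 to 128 summed tags (median 59), and none was at 0 in all animals. The tested members had a median level of 1.95 log2 CPM (tags per 1000000 tested tags after TMM scaling) against 1.80 in the rest of chromosome 20.

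Library sizes were 6972700 to 12391666 tags, 1 tag stood for 0.0822 to 0.154 CPM, and no pair of libraries of a group agreed within sampling noise. Labels place the libraries on 4 flow cells, of which the largest held 3 CTRL, 3 PILO and 2 PILO + KD libraries. PILO + KD 1 was the library most often at an extreme, being the highest or lowest of the 14 animals in 24.9% of tested members and in 28.0% of tested regions of the rest of chromosome 20.

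The share of the captured DNA taken by the proximal stretch differed between the groups by less than the spread between animals, and what differed was single regions within it. Members held 0.431% ± 0.021 (SD, n = 5) of all tags in CTRL, 0.415% ± 0.014 (n = 4) in PILO and 0.419% ± 0.026 (n = 5) in PILO + KD, with single animals between 0.384% and 0.464%. The ranges of the groups overlapped. In the tested members the median log2 fold change of PILO against CTRL was 0.01.

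In PILO against CTRL, 48 of the 680 tested members (7.06%) had an unadjusted p below 0.01 in edgeR's quasi-likelihood test, 23 higher and 25 lower in PILO. The same cut-off called 1.19% of all tested regions of the series, 0.713% higher and 0.482% lower, and 44 of 4497 regions (0.978%) in the rest of chromosome 20. The called members differed by a median of 1.13 on the log2 scale (0.47 to 2.83, either sign). In edgeR, a single member passed an adjusted p of 0.05 (Benjamini-Hochberg over all 155092 tested regions) and 2 passed 0.1. In the whole series 6 and 10 regions passed these cut-offs, and in the rest of chromosome 20 it was 0 and 0. DESeq2 gave 4 members below an adjusted p of 0.05 and limma-voom 0, and their counts over the series were not taken. The DESeq2 adjustment used independent filtering, which can leave out regions of low level, so it is not the same measure as that of edgeR. An unadjusted p below 0.05 was found for 106 members in edgeR (15.6%, against 5.13% of all tested regions), 92 in DESeq2 and 107 in limma-voom. In bulk tissue, a change in the cell types present and a change of methylation within cells cannot be told apart. Nor can either be told apart from differences in sequence or copy number between these outbred rats, whose genotypes the labels do not give. Within the largest flow cell alone, 23 members (3.38%) were called against 1.27% of the rest of chromosome 20, and among the 440 members with at least 10 tags in every animal 25 were called (5.68% against 0.968%).

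Called members were not spread over the stretch (plot of calls by window). In windows of 0.5 Mb counted from the start of the chromosome, the first 5 windows held 123 tested members and no call in any of the 3 comparisons. Windows 6 to 11, from 2.5 to 5.5 Mb, held 466 tested members and all 48 calls of PILO against CTRL (10.3%). The last window, with 91 tested members, held none. Both directions occurred side by side: window 9 had 8 higher and 1 lower member, and window 10 had 4 higher and 9 lower. These limits were noted after the values were seen.

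**Figure D1:**
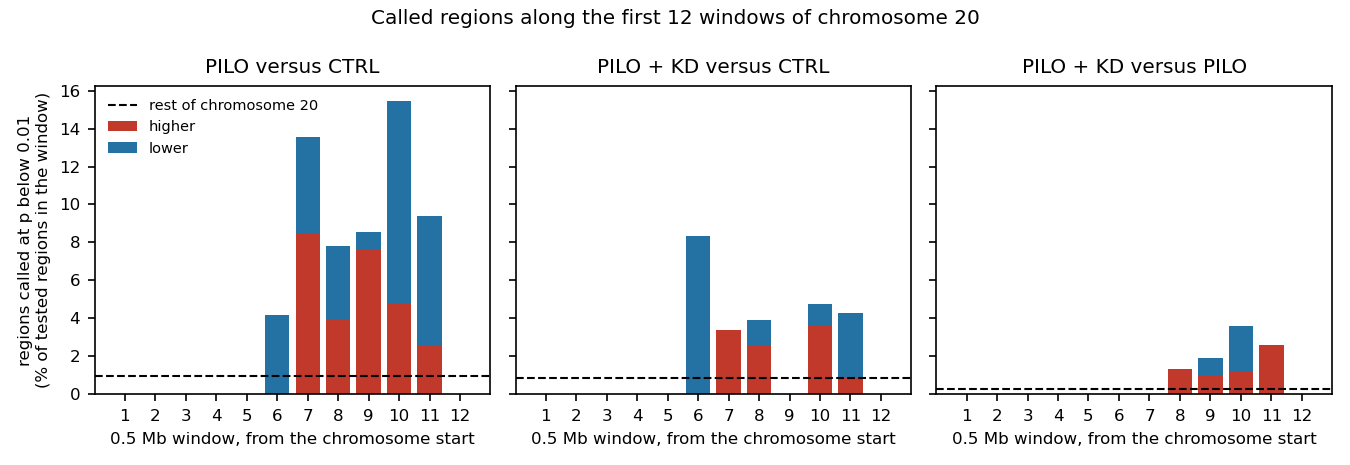
Share of tested regions called at an unadjusted p below 0.01 in edgeR (y axis, %) in each 0.5 Mb window from the chromosome start (x axis), split into higher (red) and lower (blue), for the 3 comparisons; the dashed line is the share in the rest of chromosome 20. All calls fall in windows 6 to 11, and PILO against CTRL reaches 15.5% in window 10.

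Against the rest of the genome the stretch stood at the upper end in this comparison. Of 1169 autosomal windows of 1 Mb with at least 50 tested regions, the window from 4 to 5 Mb of chromosome 20 had the highest share of called regions, with 22 of 189 (11.6%), and the window from 3 to 4 Mb ranked 3 with 14 of 136 (10.3%). The window from 5 to 6 Mb ranked 27 (5.29%). The 32 windows of the rest of chromosome 20 lay between 0% and 3.25%, and the median of all windows was 1.24%. The first 6 Mb of the other 19 autosomes had 0% to 3.16% of their tested regions called. PILO + KD against CTRL did not place the stretch at the top: the 3 to 4 Mb window ranked 56 and the 4 to 5 Mb window 175.

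**Figure D2:**
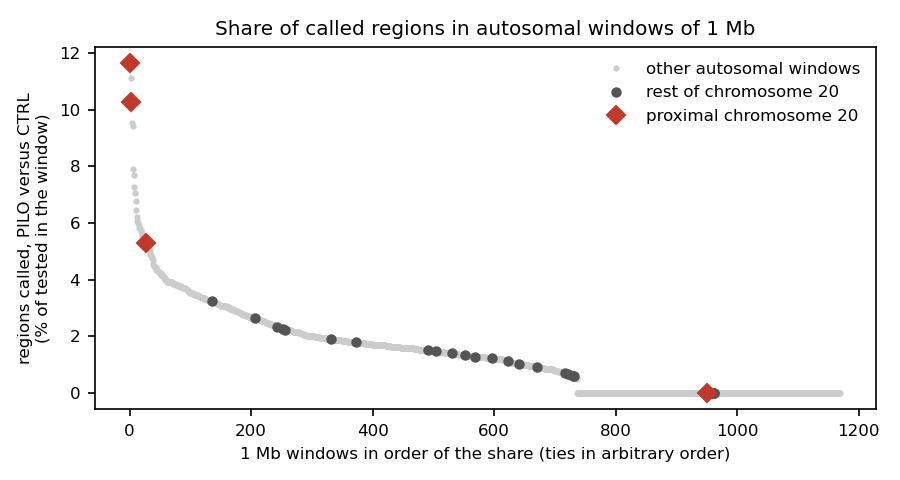
Share of tested regions called in PILO against CTRL (y axis, %) for 1169 autosomal windows of 1 Mb in descending order (x axis); diamonds are proximal chromosome 20, dark points the rest of chromosome 20. The 3 to 4 Mb and 4 to 5 Mb windows sit at 10.3% and 11.6%, while the rest of chromosome 20 does not pass 3.25%.

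The lowest p value belonged to the region chr20:5034460-5035400 (941 bp, called L1 here). CTRL 1 to 5 had 6.26, 5.26, 8.63, 4.30 and 6.87 CPM, PILO 2 to 5 had 0.444, 0.904, 3.55 and 1.26 CPM, and PILO + KD 1 to 4 and 211 had 7.05, 3.16, 4.97, 4.20 and 5.41 CPM. Every PILO rat lay below every CTRL rat, with PILO 4 closest to them. PILO + KD 1, 3 and 211 lay within the CTRL range, and PILO + KD 2 and 4 lay below it. The means were 6.26 ± 1.64 in CTRL, 1.54 ± 1.38 in PILO and 4.96 ± 1.45 in PILO + KD. PILO was lower than CTRL by a log2 fold change of -2.10 (SE 0.34, adjusted p = 0.0264 in edgeR, exact two-sided permutation p = 0.0159, the smallest that 4 against 5 animals allow). L1 was the only member that passed the adjusted cut-off of 0.05 in this edgeR fit. That adjusted call was lost without CTRL 1 (adjusted p = 0.0577 in edgeR), CTRL 3 (0.113), CTRL 5 (0.0695), PILO 2 (0.0720), PILO 3 (0.259) or PILO 5 (0.137). It was also lost in the largest flow cell alone (adjusted p = 0.137 in edgeR), with flow cell as a covariate and PILO + KD 4 left out (0.0739), and in limma-voom (0.101). The lowest adjusted p of L1 was 0.000247 in DESeq2, with independent filtering. L1 stayed lower in PILO in each of these fits.

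L1 lay in a run of lower regions flanked by higher ones. L3 (chr20:5032691-5033445), 1014 bp before it, had 8.34, 5.37, 12.1, 5.69 and 8.29 CPM in CTRL, 1.04, 2.14, 5.86 and 1.64 in PILO, and 7.19, 5.69, 4.86, 6.52 and 4.98 in PILO + KD. L4 (chr20:5040086-5040906), 4685 bp after L1, had 3.38, 2.24, 3.35, 1.64 and 4.14 CPM in CTRL, 0.592, 0.575, 2.00 and 0.630 in PILO, and 2.59, 3.37, 2.82, 2.43 and 2.33 in PILO + KD. In both, PILO 2, 3 and 5 were low and PILO 4 lay within the CTRL range, so that the groups overlapped through that animal. The log2 fold changes were -1.62 (SE 0.31, adjusted p = 0.134 in edgeR) for L3 and -1.71 (SE 0.36, adjusted p = 0.317) for L4.

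The 36386 bp from H6 (chr20:5021970-5023347) to H5 (chr20:5056541-5058355), which enclose L3, L1 and L4, held 13 regions, of which 8 were tested, 3 called higher and 3 called lower. The stretch was drawn around these named regions after the values were seen, which fixed most of its calls in advance. Its share is therefore no measure beside the 10.3% called in windows 6 to 11 or the 1.19% in the series. H5 had 1.09, 8.73, 1.55, 1.27 and 1.09 CPM in CTRL, 12.9, 7.15, 4.01 and 9.33 in PILO, and 10.9, 7.16, 5.53, 4.09 and 5.09 in PILO + KD. In H6 the values were 0.795, 4.25, 0.901, 0.380 and 0.872 CPM in CTRL, 9.47, 3.86, 2.16 and 5.17 in PILO, and 8.20, 2.11, 3.05, 2.32 and 1.91 in PILO + KD. In both regions 4 CTRL rats were far below all PILO rats and CTRL 2 was within the PILO range. PILO was higher by 1.59 (SE 0.41) in H5 and 1.80 (SE 0.47) in H6 on the log2 scale, with an edgeR adjusted p of 0.589 each. In H6, PILO + KD 1 was also far above the other PILO + KD rats.

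The closest pair of opposite regions lay near 3.5 Mb. L6 (chr20:3512210-3512877) had 4.47, 5.37, 4.25, 1.77 and 3.92 CPM in CTRL, 0.888, 0.986, 3.24 and 0.378 in PILO, and 7.34, 4.42, 3.16, 2.65 and 3.50 in PILO + KD. Only 202 bp further, the region chr20:3513080-3514297 had 0.795, 9.40, 0.386, 0.380 and 0.545 CPM in CTRL, 11.5, 6.82, 2.62 and 10.1 in PILO, and 14.7, 8.43, 5.76, 6.19 and 4.98 in PILO + KD. Thus CTRL was high and PILO low in the first, apart from PILO 4, whereas in the second CTRL was low and PILO high, apart from CTRL 2. The PILO + KD rats were high in both. L6 was lower in PILO by -1.61 (SE 0.40, adjusted p = 0.508 in edgeR) and its neighbour higher by 1.73 (SE 0.53, adjusted p = 0.711) on the log2 scale.

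Regions with groups that did not overlap were L1, L2 and L7 among L1 to L8, the 8 lower members of lowest p, and H1, H2 and H7 among H1 to H8, their higher counterparts. L2 (chr20:4480153-4481229) had 15.7, 15.3, 20.6, 13.5 and 16.5 CPM in CTRL, 9.03, 7.56, 9.71 and 8.82 in PILO, and 16.4, 12.2, 12.3, 12.2 and 14.7 in PILO + KD. Its spread was small and all PILO + KD rats lay above all PILO rats, with a log2 fold change of -0.90 in PILO against CTRL (SE 0.17, adjusted p = 0.0935 in edgeR). H1 (chr20:4757440-4757941) had 0.993, 1.34, 0.515, 1.77 and 0.109 CPM in CTRL, 4.29, 4.85, 2.31 and 3.40 in PILO, and 1.15, 3.37, 2.37, 1.66 and 2.12 in PILO + KD. H2 (chr20:3025629-3026406) had 1.29, 0.783, 1.16, 1.64 and 1.42 CPM in CTRL, 3.11, 3.29, 3.70 and 2.65 in PILO, and 1.73, 2.53, 1.36, 1.55 and 2.33 in PILO + KD. In H1 the PILO + KD rats spanned the gap between the groups, and in H2 they overlapped the CTRL rats and lay below every PILO rat. PILO was higher than CTRL by 1.99 (SE 0.39, adjusted p = 0.148 in edgeR) in H1 and 1.33 (SE 0.29, adjusted p = 0.376) in H2.

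L7 and H7 had more spread. L7 (chr20:4574449-4575617) fell from 11 ± 1.91 CPM in CTRL to 6.52 ± 1.5 in PILO, and had 8.29 ± 2.15 in PILO + KD. H7 (chr20:4192499-4193139) rose from 1.20 ± 0.390 to 2.71 ± 0.637 CPM and had 2.20 ± 0.819 in PILO + KD. In both, PILO 4 was the PILO rat nearest to CTRL. Both were called only without adjustment (adjusted p = 0.589 and 0.631 in edgeR).

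The remaining named regions overlapped between the groups. L5 (chr20:2746755-2747353) had the largest fold change, -2.83 (SE 0.63, adjusted p = 0.376 in edgeR), and a divided CTRL group, with 0.199, 4.25, 0.773, 4.93 and 3.05 CPM against 0.296, 0.411, 0.154 and 0.504 in PILO and 1.01, 0.421, 0.452, 0.221 and 0.530 in PILO + KD. CTRL 2, 4 and 5 were thus high and the other 11 rats low. L8 (chr20:4595417-4595752) fell from 2.68 ± 0.823 to 1.09 ± 0.920 CPM, with PILO 4 at 2.47 and the other PILO rats at 0.592 to 0.658. H3 (chr20:4999075-5000276), H4 (chr20:3468735-3469995) and H8 (chr20:3410398-3411725) rose from 1.01 ± 0.604, 1.29 ± 1.04 and 2.12 ± 1.46 CPM to 2.88 ± 1.10, 4.03 ± 2.20 and 4.66 ± 1.39, and in each of these CTRL 2 was the highest CTRL rat. Exact permutation p values of the 16 regions lay between 0.0159 and 0.0794, and the verbs here refer to the unadjusted cut-off.

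**Figure D3:**
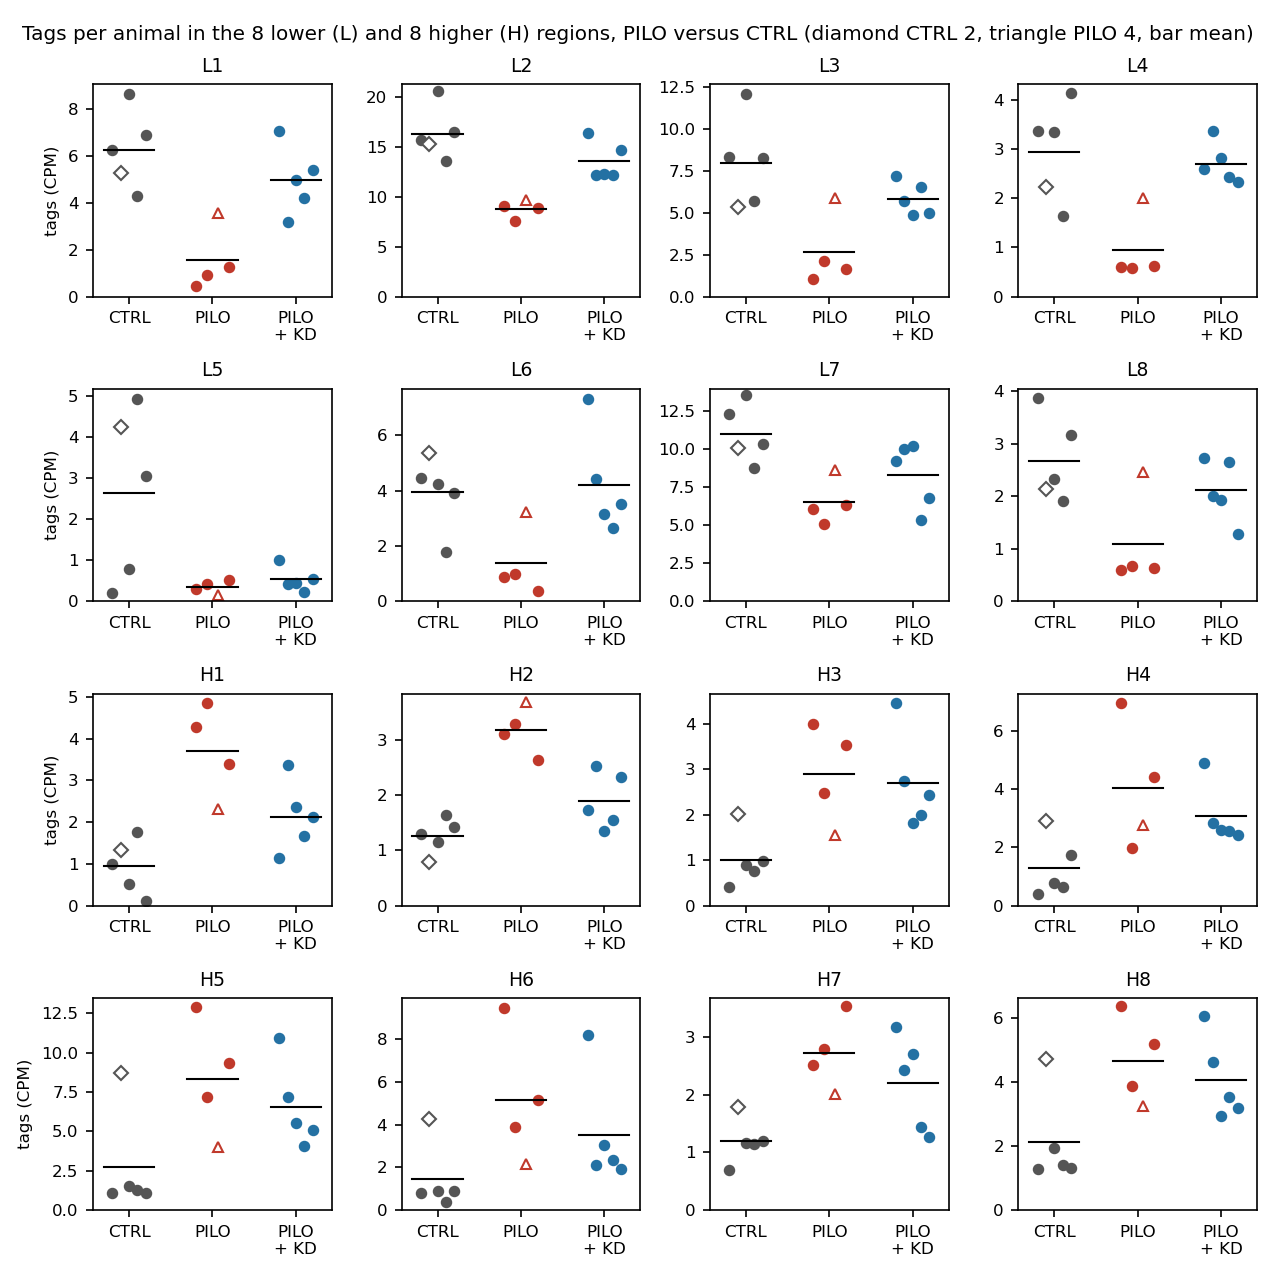
Tags (CPM, y axis) of each animal by group (x axis) in L1 to L8 and H1 to H8, the members of lowest p in PILO against CTRL; bars are group means, diamonds CTRL 2 and triangles PILO 4. PILO 4 lies above the other PILO rats in L1, L2, L3, L4, L6, L7 and L8, and CTRL 2 lies within the PILO range in H3, H4, H5, H6 and H8.

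The same animals recurred between the groups. In 10 of the 23 higher members (43.5%), CTRL 2 alone reached the PILO range while the other 4 CTRL rats lay below all PILO rats, against 7.11% of the 1083 higher regions called elsewhere in the series. In 7 of the 25 lower members (28.0%), PILO 4 alone reached the CTRL range, against 5.82% of 722. CTRL 2 was the highest CTRL rat in 15 of the 23 higher members (65.2%, elsewhere 26.3%) and PILO 4 the lowest PILO rat in 15 of them (65.2%, elsewhere 21%). In the 25 lower members PILO 4 was the highest PILO rat in 13 (52%, elsewhere 18.6%), and the lowest CTRL rat was most often CTRL 4, in 12 (48%, elsewhere 20.5%), and CTRL 2 in 5 (20%, elsewhere 18.7%). Without CTRL 2 there were 51 calls and without PILO 4 there were 47, of which 8 and 3 passed an adjusted p of 0.05 in edgeR. Over the series these fits called 1784 and 1504 of 155092 regions. Other CTRL or PILO rats left out gave fewer calls, down to 34 without CTRL 1 and 33 without PILO 5, where the series had 1678 and 1827. In edgeR 0 members passed the adjusted cut-off without CTRL 3, CTRL 5, PILO 2, PILO 3 or PILO 5. Of the members, 92, 92, 98, 79 and 94 then had an unadjusted p below 0.05, a count not taken over the series. These counts are a description noted after the values were seen, and the calls themselves used the same values.

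Over all tested members, the groups did not overlap in 31 (4.56%) against 2.01% of all tested regions. The groups did not overlap in 16 of the 48 called members (33.3%), in 20 of the 44 called regions of the rest of chromosome 20 (45.5%) and in 53.9% of the 1805 regions called elsewhere in the series. The called members also had more spread within groups, with a median SD of 0.524 on the log2 CPM scale against 0.397 in the 44 called regions of the rest of chromosome 20 and 0.396 elsewhere, at median levels of 1.47, 1.48 and 1.38 log2 CPM. Called higher members had a median length of 1055 bp, called lower members 904 bp and uncalled tested members 830 bp.

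PILO + KD against CTRL gave fewer calls in the same windows. At the same cut-off 16 members (2.35%) were called, 8 higher and 8 lower, against 0.92% of all tested regions (0.5% higher and 0.42% lower) and 37 of 4497 (0.823%) in the rest of chromosome 20. None had an adjusted p below 0.05 in edgeR, DESeq2 or limma-voom. An unadjusted p below 0.05 was found for 54 members in edgeR (7.94%, against 4.22% of all tested regions), 43 in DESeq2 and 61 in limma-voom. The count moved with single animals: it was 27 without CTRL 2 (21 higher and 6 lower), 9 without CTRL 1, CTRL 3, CTRL 5 or PILO + KD 1, and 10 without PILO + KD 3. Over the series, the fits without these rats called 1425, 1138, 1664, 983, 1148 and 1536 of 155092 regions, in the same order. Without CTRL 2, 4 members had an adjusted p below 0.05 in edgeR. The largest flow cell alone gave 8 and DESeq2 9, against 949 and 1217 of 155092 regions of the series. The groups did not overlap in 8 members (1.18%), against 0.727% of all tested regions.

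The region chr20:4913238-4913786 was called higher in PILO + KD both against CTRL and against PILO. It had 1.49, 1.34, 0.773, 0.380 and 1.09 CPM in CTRL, 1.92, 1.15, 0.462 and 1.01 in PILO, and 4.46, 2.74, 5.42, 1.99 and 1.91 in PILO + KD. PILO + KD rats lay above all CTRL rats, and all but PILO + KD 211 lay above all PILO rats. The log2 fold change was 1.65 against CTRL (SE 0.36, adjusted p = 0.614 in edgeR, exact permutation p = 0.00794, the smallest that 5 against 5 allow) and 1.51 against PILO (SE 0.39), while PILO against CTRL gave 0.13 (SE 0.44). Lower and without overlap were chr20:3706952-3707775, with 6.59 ± 0.688 CPM in CTRL, 4.11 ± 0.583 in PILO and 4.53 ± 0.740 in PILO + KD, and chr20:5104653-5105906, with 8.36 ± 0.824, 7.42 ± 1.75 and 5.82 ± 0.788. In the first, PILO also lay below CTRL, in the second the PILO rats overlapped both groups, and neither passed adjustment (adjusted p = 1 in edgeR). Also lower were L5 (log2 fold change -2.33, SE 0.54), chr20:5325507-5326410 (-1.09, SE 0.38) and chr20:5079263-5080118 (-0.61, SE 0.21). H3, H4, H1 and the neighbour of L6 were higher by 1.38, 1.21, 1.19 and 1.75 on the log2 scale.

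The comparisons of PILO and of PILO + KD with CTRL share their controls, so that common calls are not independent. There were 12 common regions, which is 25% of the 48 and 75% of the 16. In 45 of the 48 members called in PILO against CTRL the PILO + KD mean lay between the other means (93.8%), as it did in 91.9% of the regions called elsewhere, a position that calling the extreme groups favours.

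PILO + KD against PILO called 9 members (1.32%), 6 higher and 3 lower in PILO + KD, against 0.351% of all tested regions (0.151% higher and 0.201% lower) and 12 of 4497 (0.267%) in the rest of chromosome 20. None passed an adjusted p of 0.05 in edgeR, DESeq2 or limma-voom, and 28, 23 and 34 had an unadjusted p below 0.05. With PILO 4 left out, 1 member passed the adjusted cut-off in edgeR. The 28 members of edgeR were 4.12% of those tested, against 2.30% of all tested regions. The groups did not overlap in 13 members (1.91%, against 0.746%). The 3 higher regions of lowest p were L1, L4 and L6, with log2 fold changes of 1.75 (SE 0.34), 1.59 (SE 0.37) and 1.67 (SE 0.40), for which the values per rat stand above. All PILO + KD rats were above all PILO rats in L4, and PILO 4 was the overlapping PILO rat in L1 and L6. The lower region chr20:4201294-4201998 had 2.38, 2.35, 1.67, 2.02 and 2.07 CPM in CTRL, 3.11, 3.86, 3.70 and 3.78 in PILO, and 1.73, 2.11, 1.69, 2.32 and 2.54 in PILO + KD. PILO rats stood above all others and PILO + KD overlapped CTRL, with a log2 fold change of -0.79 against PILO (SE 0.24, adjusted p = 1 in edgeR). The other lower regions, chr20:4950014-4951098 and chr20:4955986-4957579, differed by -0.90 (SE 0.30) and -0.65 (SE 0.22).

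The spread between animals was not larger over the members as a whole. The median within-group SD was 0.346 on the log2 CPM scale, against 0.368 in the rest of chromosome 20 and 0.362 in all tested regions. By group it was 0.307 in CTRL, 0.325 in PILO and 0.328 in PILO + KD, against 0.316, 0.335 and 0.359 in the rest of chromosome 20. At matched levels the medians lay close together, at 0.448 and 0.477 below 1.5 log2 CPM, 0.316 and 0.328 from 1.5 to 3, and 0.246 and 0.246 above 3. The upper tail held more members: 46 of 680 (6.76%) had an SD above 0.689, the limit of the top 5% of all tested regions, against 4.63% in the rest of chromosome 20. By level, 40 of 273 members below 1.5 log2 CPM (14.7%) passed this limit, against 10.1% of the 1875 such regions in the rest of chromosome 20, and 6 of 250 members from 1.5 to 3 log2 CPM (2.4%) against 1.02%. Above 3 log2 CPM it was 0 of 157 members against 0.104%. These shares were not tested. The windows were alike in median SD, from 0.276 to 0.393, including those without calls.

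**Figure D4:**
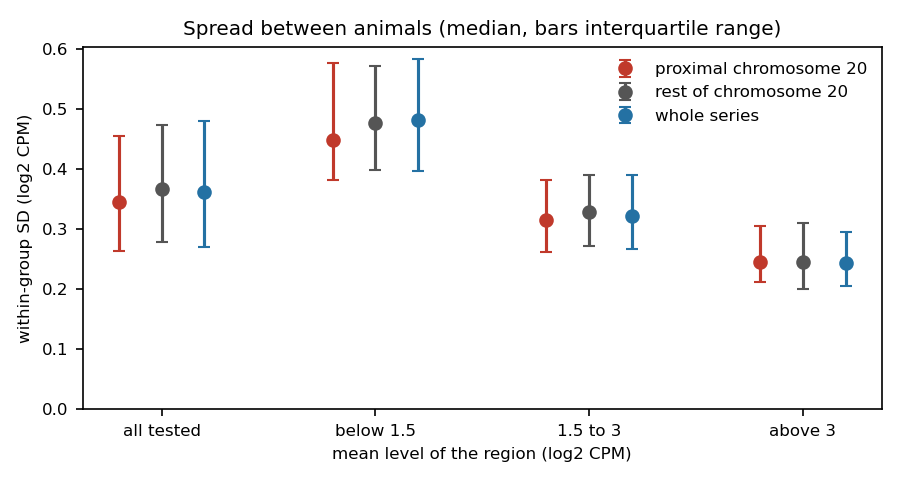
Median within-group SD between animals (y axis, log2 CPM) for tested regions overall and in 3 bands of mean level (x axis, log2 CPM); bars are interquartile ranges. Proximal chromosome 20 (0.346 overall) lies at or below the rest of chromosome 20 (0.368) in each band.

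A few members were nearly empty in some rats and well filled in others. These were members with a median of at least 20 tags over the 14 rats and a lowest rat at or below 1/8 of the median level. There were 8 among 452 eligible members (1.77%), against 14 of 2862 (0.489%) in the rest of chromosome 20 and 0.296% in the series. The first 6 Mb of the other autosomes held 0 to 4. The highest counts there were 4 of 136 eligible regions on chromosome 17, a larger share than in the members, and 3 of 219 on chromosome 15. In order along the chromosome they are called V1 to V8, and 7 of them lay in windows 6 to 11. V2 is L6, V3 its neighbour, and V7 is L1.

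V4 (chr20:3538954-3539686) had 0, 39, 1, 0 and 0 tags in CTRL, 44, 31, 7 and 32 in PILO, and 36, 25, 15, 29 and 21 in PILO + KD. All CTRL rats but CTRL 2 were thus empty or held a single tag, which at 0 tags allows up to 3 tags, and all pilocarpine rats held the region. V5 (chr20:4278905-4280006) had 1, 38, 1, 57 and 1 tags in CTRL, 37, 101, 33 and 49 in PILO, and 15, 48, 34, 31 and 26 in PILO + KD. Here CTRL 1, 3 and 5 were nearly empty and CTRL 2 and 4 were filled like the pilocarpine rats. V6 (chr20:4699847-4700614) had 6, 37, 3, 30 and 2 tags in CTRL, 55, 60, 19 and 37 in PILO, and 45, 16, 27, 27 and 34 in PILO + KD. The CTRL rats split as in V5. PILO was higher than CTRL by 1.93 in V4, 1.47 in V5 and 1.51 in V6 on the log2 scale, with unadjusted p values of 0.00707, 0.00805 and 0.00249 in edgeR.

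Emptiness in PILO rats was seen in V1, V2, V7 and V8. V8 (chr20:5325507-5326410) had 54, 43, 64, 21 and 39 tags in CTRL, 32, 5, 20 and 2 in PILO, and 16, 28, 22, 17 and 21 in PILO + KD, so that PILO 5 was below 1/8 of the median level, PILO 3 lay just above that limit, and PILO 2 and 4 were filled. V1 (chr20:1885739-1886474), outside the windows with calls, was nearly empty in PILO 4 alone, with 1 tag, against 9, 31 and 34 in the other PILO rats and 12 to 39 in CTRL. The rats at or below 1/8 of the median were CTRL 1, 3, 4 and 5 and PILO 2, 4 and 5. CTRL 2, PILO 3 and all PILO + KD rats were at no point among them.

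**Figure D5:**
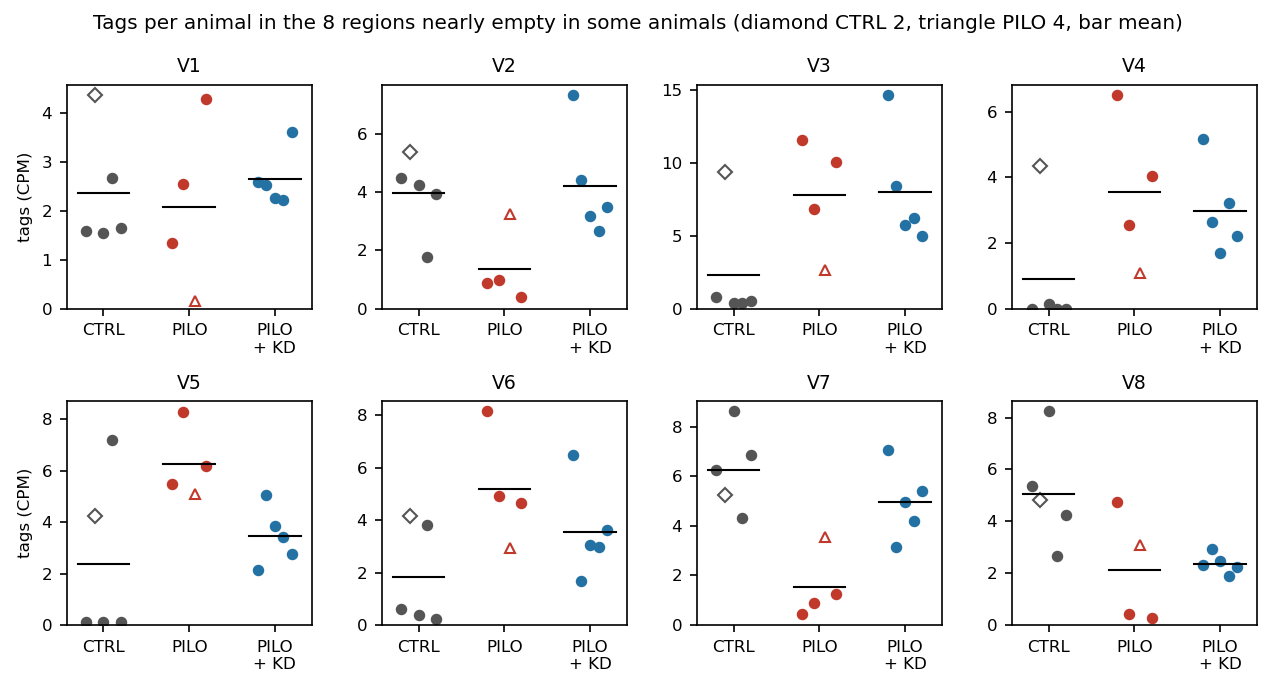
Tags (CPM, y axis) of each animal by group (x axis) in V1 to V8, members nearly empty in some rats; bars are group means, diamonds CTRL 2 and triangles PILO 4. In V3 and V4 the CTRL rats other than CTRL 2 lie near 0, and no PILO + KD rat does in any of the 8.

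At the boundary of the set, the last member, chr20:5999488-5999976, had 62 summed tags and the first region beyond it, chr20:6000021-6000414, had 28, and neither reached the filter, so that no difference between groups was tested there. The 3 members with the most tags per bp, chr20:2167669-2168741, chr20:4595853-4596611 and chr20:2157715-2158893, had 4310, 3014 and 3965 summed tags. Their log2 fold changes of PILO against CTRL were 0.05, -0.07 and 0.08, with unadjusted p values of 0.749, 0.652 and 0.624 in edgeR. The second of these lies 100 bp beyond the end of L8, one of the called lower members.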

How the data were processed

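Members and lists were chosen with earlier results of these data known. The authors aligned 36 bp reads to RN4 with BWA, removed duplicates, called regions between all sample pairs with MACS 1.4.0, merged them with bedtools and deposited whole-number tag counts per region and animal, not normalized; an unenriched input was not used here. Groups, replicate numbers and flow cells came from the labels. Counts of regions with at least 129 summed tags (155092 of 310070, 92.8% of tags) were scaled by TMM and tested over all 14 animals with edgeR 4.0.16 (R 4.3.3, quasi-likelihood, no covariate), with Benjamini-Hochberg adjustment over all of them. The SE is the log2 fold change over the square root of F. For log2 CPM, 2 tags were added as prior count, and permutation tests on these values were exact and two-sided. Coordinates are RN4, counted from 1; region lengths were read as end minus start. Named regions were, by rule, the 8 higher and 8 lower members of lowest p in PILO against CTRL, 5 and 5 in PILO + KD against CTRL, 3 and 3 in PILO + KD against PILO, the 8 nearly empty members, the boundary pair and the 3 densest members. Only the edgeR fit of PILO against CTRL was tested on simulated data. Intervals of single counts cover counting error only. Same-numbered rats of different groups had deviations that correlated between -0.29 and 0.28 over all tested regions. Their mean r was 0.127 for PILO and PILO + KD, 0.0101 for CTRL and PILO, and -0.00798 for CTRL and PILO + KD. Rats of unlike number had -0.0211, -0.00196 and 0.00217. So few pairs cannot exclude a pairing by number, and the main fit used none. Alternatives used limma 3.58.1 and DESeq2 1.42.0.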

Additional observations from a re-analysis of the deposited data

Results flagged for a closer look

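In each group of 4 or 5 rats, the highest or lowest rat was set apart where its gap to the next exceeded Dixon's critical value. The 29 regions looked at, those named by lowest p and V1 to V8, gave 87 such groups and 10 values set apart, from 4 rats, of which 5 were of CTRL 2. Chance gives about 1 in 20 groups, but the regions were picked on these same values, so that this rate is no yardstick here. CTRL 2 had 8.73 CPM in H5 (other CTRL rats 1.09 to 1.55), 4.25 in H6 (0.380 to 0.901), 4.70 in H8 (1.29 to 1.93), 9.40 in V3 (0.380 to 0.795) and 4.36 in V4 (0 to 0.129). PILO 4 had 2.00 CPM in L4 (other PILO rats 0.575 to 0.630) and 2.47 in L8 (0.592 to 0.658). PILO + KD 1 had 4.89 CPM in H4 (other PILO + KD rats 2.44 to 2.84) and 8.20 in H6 (1.91 to 3.05). PILO + KD 211 had 3.60 CPM in V1 (2.21 to 2.59).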

How the results depend on the processing

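Of the 48, 16 and 9 calls, in the order of the report, 1, 0 and 0 kept an adjusted p below 0.05 in edgeR. In the series 6, 2 and 0 regions did. An unadjusted p below 0.05 in edgeR was found for 106, 54 and 28 members. With at least 10 tags in every animal 25, 6 and 2 members were called, of 440 tested, against 971, 641 and 240 of 95005 regions of the series. Without a filter the last 2 counts were 29 and 14, of 1100 tested, against 2934 and 1663 of 310068 regions of the series. The largest flow cell alone gave 23 and 8 in the comparisons with CTRL, where 2190 and 949 of 155092 regions of the series were called. DESeq2 gave 9 in PILO + KD against CTRL, where 1217 of 155092 were called. The replicate block, with the unnumbered rat left out, gave 41, 17 and 8, against 1987, 950 and 471 of 155092 in the series. Flow cell as a covariate, with PILO + KD 4 left out, gave 43, 19 and 8, against 1983, 1498 and 604 of 155092. Leaving out each rat in turn gave 33 to 51, 9 to 27 and 9 to 12 calls, 6 to 8 nearly empty members, and a median SD of 0.335 to 0.352. Over the series the calls then numbered 1445 to 2225, 983 to 1688 and 488 to 921 of 155092. The nearly empty members numbered 16 with 1/4 of the median as the limit and 2 with at least 40 tags. As a share of chromosome 20, members held 12.9%, 12.6% and 12.8% of the tags in CTRL, PILO and PILO + KD. For the regions named by lowest p, 32 fold changes (a region named in 2 comparisons counts in each) were refitted, and none changed direction under the alternatives that tested it. Of these, 12 kept an unadjusted p below 0.01 in all, and 20 lost it in at least 1, most often in the largest flow cell alone (16 of 32). Fold changes of V1, V4, V5 and V6, the boundary pair and the densest members were not refitted. The cause of these moves was not tested beyond the fewer regions or rats they hold. Few tags limit low regions: 1 tag is up to 0.154 CPM.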

Other observations

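Taken over all adjacent pairs, neighbouring tested members had a median correlation like that of the rest of chromosome 20. The deviations of the 14 rats from their group means correlated with a median r of 0.09 between 679 adjacent pairs of members and 0.09 between 4496 adjacent pairs in the rest of chromosome 20. This is across regions that share the same libraries, with no test. Pairs with r above 0.7 made up 5.74% and 5.20%, and 6.41% and 5.20% among pairs less than 5 kb apart. The median is taken over signed r and mostly over uncalled members, so it cannot show whether called members vary together.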
